A study of Homo sapiens with 7 samples.

Results

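Internal introns of intermediate length, that is every intron other than the first of its transcript and at least 1000 but under 5000 bp long, were examined in nascent RNA of human RPE1 cells. The deposited splice table lists 6709 introns, of which 1597 met these limits of position and length and had a splice index in all 3 WT and all 3 CFAP20-KO libraries. They lay in 978 genes and 1072 transcripts, and 27 further introns of the same position and length lacked a value and were left out. Their median length was 1877 bp, with a shortest of 1001 and a longest of 4972 bp. RPE1 is an immortalised line from human retinal pigment epithelium. All 7 libraries came from a derivative carrying an inducible Cas9 (iCas9) and the double knockout labelled p53/puro-dKO. There were 3 libraries of this line without further change (WT), 3 of a CFAP20 knockout made in it (CFAP20-KO) and 1 of the knockout with a CFAP20-GFP transgene (rescue). Each was labelled with 2 mM bromouridine for 30 min, and the labelled RNA was isolated with an antibody and sequenced (BrU-seq). The labels do not say how many clones the knockout stands for. Nor do they call the replicates separate cultures, and the p-values therefore refer to variation among libraries that may be technical only.

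Splicing removes an intron between the 5′ splice site, where the U1 small nuclear RNA pairs across the exon border, and the 3′ splice site, which follows a tract rich in pyrimidines. In metazoan genes it is often carried out while RNA polymerase II is still transcribing, so RNA captured shortly after synthesis holds spliced and unspliced molecules side by side. CFAP20 is a protein known from cilia and flagella. The splice index runs from 0 to 1 for each intron and library. The labels and file headers do not state its formula. Across 268 members with coverage of the intron itself, the index was lower where intron coverage was higher (Spearman correlation -0.216 to -0.0981 over the 6 libraries, across introns of 1 library and with no test).

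Of the 1597 members, 1582 began with GT and ended with AG, 14 had GC and AG, and 1 had GT and TG. The 5′ ends of 7 introns described below are printed as 10 exonic and 20 intronic bases, 5′ to 3′ on the transcribed strand (hg38). The 3 exonic and 6 intronic bases of the 5′ splice site are in capitals. EIF4B and RACGAP1 are shown for introns with a higher index in CFAP20-KO, DSN1, DRG2 and CPA4 for introns with a lower one, and RPS19 and DUOX1 for introns with a low index in both.
EIF4B intron 10: tcagaccAGGGTGGGTatcgtgttattgcc
RACGAP1 intron 3: cgaaaagCTGGTGTGTattgttttccgtgc
DSN1 intron 3: cagtttcCAGGTAAGGttcttataactagg
DRG2 intron 2: tcaaatgATGGTAAGGagccagttccagga
CPA4 intron 8: agttttgCAGGTAGGCggtggggagacagt
RPS19 intron 5: cgccggaCAGGTAAGGcctgcgtttggggt
DUOX1 intron 32: ctgtaagAAGGTGAGTactgcccccacttc
The windows lie at chr12:53034715-53034744 (EIF4B, plus strand), chr12:50006414-50006443 (RACGAP1, minus), chr20:36767949-36767978 (DSN1, minus), chr17:18092065-18092094 (DRG2, plus), chr7:130308388-130308417 (CPA4, plus), chr19:41869744-41869773 (RPS19, plus) and chr15:45162368-45162397 (DUOX1, plus). Set against the 9 letters of the consensus, CAG at the exon's end and GTAAGT at the intron's start, DSN1 and RPS19 matched at 8, CPA4 and DUOX1 at 7, RACGAP1 and DRG2 at 6 and EIF4B at 5. The RPS19 and DSN1 sites have the same 9 letters, yet their mean indices in WT were 0.10 and 0.735. A further 8 members had at least 7 of 8 letters of a 5′ end used by the minor, U12-dependent spliceosome (GTATCCTT, or the same with A in place of the first G) at the start of the intron. The site of AP1M1, a subunit of the clathrin adaptor AP-1, and that of HNRNPM, an RNA-binding protein, are shown in the same way, so that the capitals hold the first 6 of those 8 intronic letters.
AP1M1 intron 2: aacctgtATCGTATCCctttgctgggggtg
HNRNPM intron 7: caagctaTATGTATCCttctgcaggaattc
They lie at chr19:16203606-16203635 and chr19:8466379-8466408, both on the plus strand. The 3′ ends of DSN1 intron 3 and RPS19 intron 5, which share their 5′ splice site, are shown as 25 intronic and 5 exonic bases, with the last 20 intronic bases in capitals.
DSN1 intron 3, 3′ end: actaaAAATGCTTTTCTTTATTTAGttctc
RPS19 intron 5, 3′ end: tttatTCTTCCATCTTTTCCCACAGgtggc

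The median index of the whole class overlapped between WT and CFAP20-KO. The median over the 1597 introns was 0.657, 0.732 and 0.75 in WT replicates 1 to 3 and 0.606, 0.766 and 0.75 in CFAP20-KO replicates 1 to 3. The groups overlapped, and the lowest library of each was replicate 1. Their means were 0.713 ± 0.0494 and 0.707 ± 0.0882 (SD, n = 3 each), a difference of -0.00533 (two-sided exact permutation test, p = 1, where 0.1 is the smallest possible). Column names of the table carry 3 different numbers, called here runs A (WT 1 and CFAP20-KO 1), B (WT 2 and rescue) and C (WT 3, CFAP20-KO 2 and 3), and what they stand for is not given. CFAP20-KO minus WT was -0.0506 within run A and 0.00818 within run C, with the mean of both CFAP20-KO medians, so the direction differed between runs. The rescue library, the only one of its kind, had a median of 0.771, above its run partner WT 2. Intron by intron the rescue differed from WT 2 by a median of 0.0258, with 1012 members higher and 552 lower of 1596 measured in both.

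**Figure D1:**
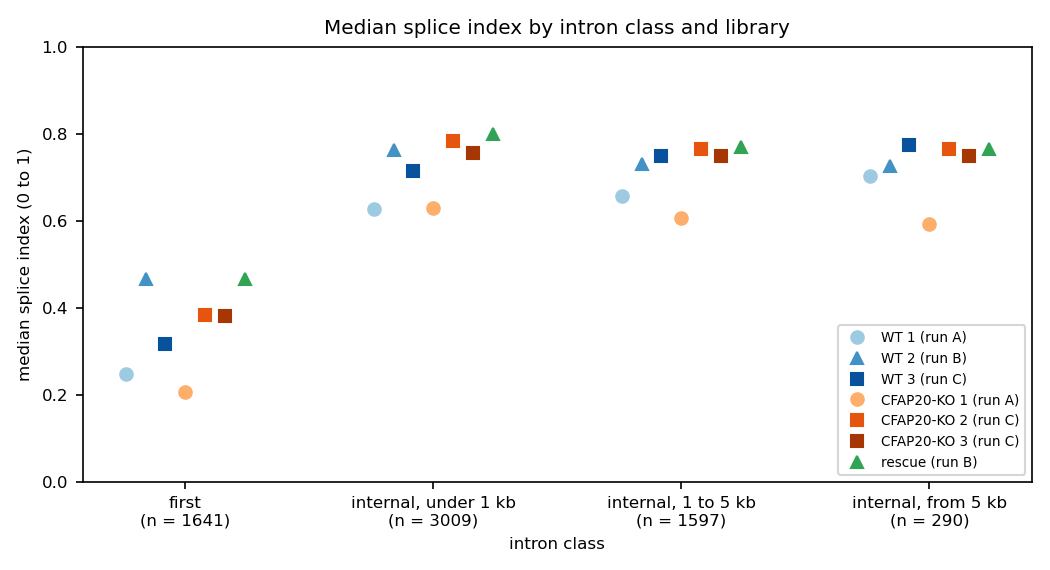
Median splice index (0 to 1) of 4 intron classes in each of the 7 libraries, with 1 point per library and the marker shape showing the run. Internal introns of 1 to 5 kb sit between 0.606 and 0.771, close to the other internal classes and above first introns.

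Between classes, members had medians near those of shorter and longer internal introns. Their median minus that of the 3009 internal introns under 1 kb was -0.00219 (two-sided exact sign-flip permutation test over 6 libraries, p = 0.844) and minus that of the 290 internal introns of at least 5 kb -0.00837 (p = 0.5). Introns of 1 transcript share its transcription, so the classes were also set against each other within transcripts. In the 453 transcripts holding both kinds, members lay below the transcript's shorter internal introns in all 6 libraries, with a median difference of -0.0227 averaged over libraries. In 106 transcripts members lay above the longer internal introns by 0.0321, and in 215 transcripts above the first intron by 0.0763, again in all 6 libraries. Each of the 3 within-transcript differences had p = 0.031 in the exact sign-flip test over libraries, the smallest it can give. None of the 3 was adjusted for the number of comparisons. Against shorter and longer internal introns the smallest differences were those of WT 3, at -0.00534 and 0.000891. Between genotypes their exact permutation p was 0.7, 0.4 and 1.

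In these libraries the median index of CFAP20-KO relative to WT was lower among longer than among shorter members, in a design too small to pass 0.05, and with a smaller difference once second introns were left out. Among members of 1 to 2 kb the median index was 0.646, 0.720 and 0.734 in WT and 0.609, 0.762 and 0.744 in CFAP20-KO (872 introns), and among members of 4 to 5 kb it was 0.690, 0.755 and 0.786 in WT and 0.580, 0.778 and 0.752 in CFAP20-KO (125 introns). The longer members thus lay 0.0437, 0.0342 and 0.0515 above the shorter ones in WT replicates 1 to 3, whereas the same difference was -0.0297, 0.0168 and 0.00867 in CFAP20-KO replicates 1 to 3. All 3 CFAP20-KO values were lower than all 3 WT values, with a difference of means of -0.0445 (exact permutation p = 0.1, the smallest that 3 against 3 can give, and 0.733 after Benjamini-Hochberg adjustment over 11 comparisons of genotypes). Among introns numbered 3 or higher alone the difference of means was -0.0102, with 1 value per gene -0.0393, and as a mean over introns -0.0244 (exact permutation p = 0.5, 0.1 and 0.2). Over both genotypes the longer members lay above the shorter ones by 0.0209 on average (exact sign-flip permutation p = 0.156). Within run A the genotype difference was -0.0733 and within run C -0.0388. The rescue library had 0.00962, nearer the CFAP20-KO values than the WT ones.

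By steps of 1 kb inside the class, the differences within runs were mostly lower at each longer step. From members of 1 to 2 kb through 2 to 3 and 3 to 4 to 4 to 5 kb, the median difference of CFAP20-KO 1 from WT 1 was -0.0193, -0.0320, -0.0593 and -0.0788. For CFAP20-KO 2 against WT 3 it was 0.0128, 0.00642, 0.00679 and -0.00381, and for CFAP20-KO 3 against the same WT library 0.00581, -0.0015, -0.00676 and -0.0207. Both of these share WT 3, and only that of CFAP20-KO 2 had a step that did not fall. The rescue against WT 2 showed no such order, with 0.0288, 0.0189, 0.0216 and 0.0297. Outside the length limits, internal introns under 0.2 kb had differences of 0.0180, 0.0419 and 0.0290 in these 3 contrasts, and those of at least 5 kb -0.0753, -0.0110 and -0.0349. Members therefore held the stretch of lengths in which these differences passed from above 0 to below 0 in run C and moved farther below 0 in run A.

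Single introns were counted by length as well. The 3 CFAP20-KO values did not overlap the 3 WT values in 193 members, or 12.1%, where the share over all 6537 introns was 11.1%. CFAP20-KO was higher in 82 and lower in 111 of them, and over all introns the shares were 5.92% higher and 5.14% lower. By length, 55 were higher and 47 lower at 1 to 2 kb, 15 and 37 at 2 to 3 kb, 5 and 14 at 3 to 4 kb, and 7 and 13 at 4 to 5 kb. Internal introns under 1 kb had 248 higher and 93 lower, and those of at least 5 kb 15 and 39. GC content fell with length, from a median of 55.6% under 0.2 kb to 47.0% at 1 to 2 kb and 44.9% from 5 kb, and its part in the length pattern across classes was not tested. Inside the class, members of 3 to 5 kb were set against those of 1 to 2 kb. The genotype difference of means was -0.0293, -0.0205 and -0.0256 among members of lower, middle and upper GC content. The WT and CFAP20-KO libraries overlapped in each of these GC groups, and none of the differences was tested.

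**Figure D2:**
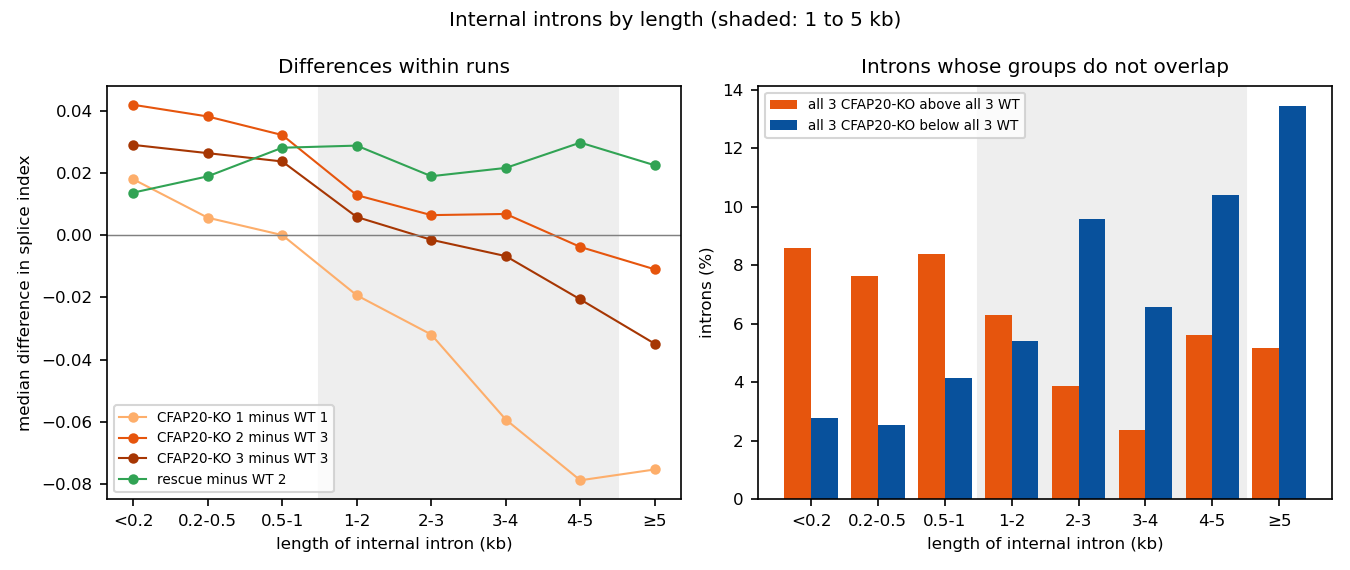
Left, median difference in splice index within runs against the length of internal introns, and right, the percentage of introns whose 3 CFAP20-KO values all lay above or all below the 3 WT values. The CFAP20-KO lines fall across the shaded lengths of 1 to 5 kb, by CFAP20-KO 1 from -0.0193 to -0.0788, while the rescue line stays between 0.0189 and 0.0297 there.

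Position in the transcript went with larger differences in index than length did. Second introns had medians of 0.5, 0.643 and 0.632 in WT and 0.45, 0.653 and 0.649 in CFAP20-KO (425 introns), and introns numbered 11 or higher 0.747, 0.805 and 0.806 in WT and 0.75, 0.826 and 0.803 in CFAP20-KO (206 introns). In all 6 libraries second introns lay below later ones, with differences of -0.202, -0.112 and -0.149 in WT and -0.193, -0.147 and -0.129 in CFAP20-KO. The mean was -0.155 (exact sign-flip permutation p = 0.031, the smallest possible, and 0.0521 adjusted over 10 such comparisons), and the groups overlapped, with a difference of -0.00204 between genotypes. Counted in bases, the members whose 3′ splice site lay nearest the transcript start, up to 5156 bp, had medians of 0.364 to 0.575 over the 6 libraries, and the farthest, beyond 35300 bp, 0.72 to 0.848. Across introns the Spearman correlation of the mean WT index with this distance was 0.382, against 0.0317 with length (1544 and 1597 introns, which share libraries and genes, with no test). Last introns (278 members) lay below the remaining members in all 6 libraries, with a mean difference of -0.0938 (exact sign-flip p = 0.031, adjusted 0.0521).

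**Figure D3:**
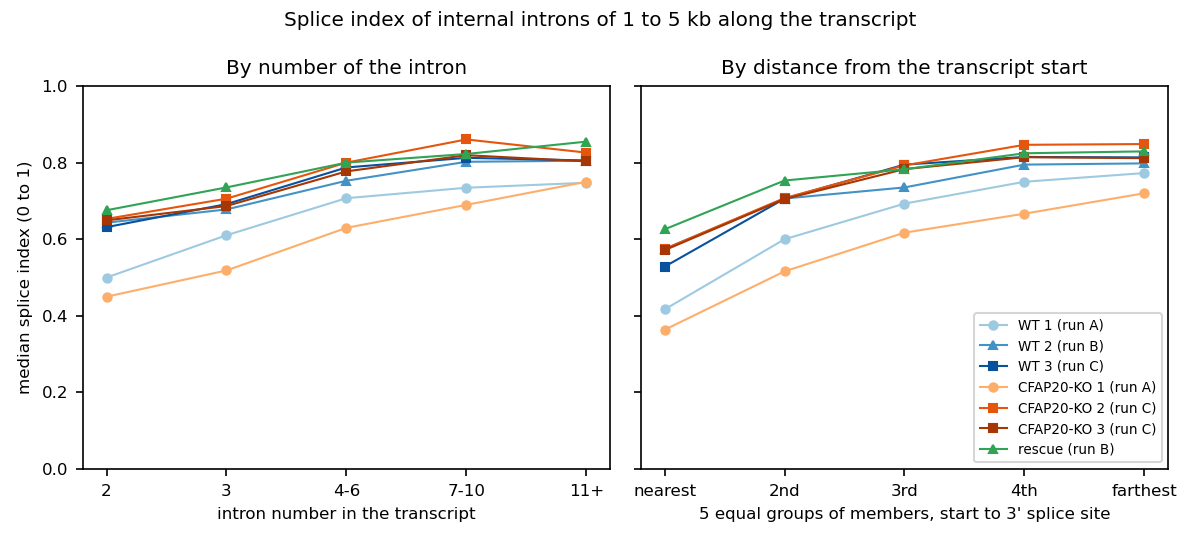
Median splice index (0 to 1) of the 1597 members by number of the intron (left) and of the 1544 members matched to annotated introns by distance from the transcript start in 5 equal groups (right), with 1 line per library. Every line is higher at the right end than at the left, from 0.45 to 0.653 at the second intron to 0.747 to 0.826 from intron 11 over the WT and CFAP20-KO libraries.

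Members outside coding sequence had lower indices than those between coding exons. The 1347 members between coding exons had medians of 0.688, 0.747 and 0.775 in WT and 0.636, 0.793 and 0.776 in CFAP20-KO. The 56 members in 5′ UTRs had 0.316, 0.545 and 0.462 in WT and 0.252, 0.446 and 0.477 in CFAP20-KO, and the 45 in 3′ UTRs 0.412, 0.572 and 0.568 in WT and 0.343, 0.547 and 0.575 in CFAP20-KO. The 96 members of transcripts without a coding sequence were lowest, at 0.181, 0.329 and 0.228 in WT and 0.102, 0.181 and 0.185 in CFAP20-KO. Both UTR members together and members of noncoding transcripts lay below those between coding exons in all 6 libraries, with mean differences of -0.287 and -0.535 (exact sign-flip p = 0.031 each, adjusted 0.0521). In noncoding transcripts 17 of the 96 members had all CFAP20-KO values below all WT values and 1 had them above, where the shares over all introns were 5.14% and 5.92%. The group's distance from coding introns overlapped between genotypes, with a difference of -0.0885 (exact permutation p = 0.2). It was lower in CFAP20-KO within run A (-0.0279), within run C (-0.0542) and in all 3 same-numbered pairs (exact sign-flip p = 0.25, the smallest that 3 pairs can give). The labels do not give this pairing by number. Position still showed between coding exons alone, where second introns had 0.529 to 0.719 and later ones 0.652 to 0.814 over the 6 libraries. The 103 members with an annotated exon on the opposite strand lay below the others in all 6 libraries, with a mean difference of -0.178 (exact sign-flip p = 0.031, adjusted 0.0521), and no label says whether the index separates strands.

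The number of consensus letters separated members little. Members with at least 8 of 9 consensus letters (178) differed from those with 6 or fewer (826) by 0.00346 on average, with 3 libraries above 0 and 3 below (exact sign-flip p = 0.531). Across introns the Spearman correlation of the mean WT index with the number of matches was 0.0258, and with the share of pyrimidines in the 17 bases that end just before the last 3 of the intron 0.0358. The 14 introns starting with GC had medians of 0.576, 0.698 and 0.695 in WT, and the 8 with a U12-like start 0.314, 0.595 and 0.654. These 8 ranged from 0 in every WT library for intron 3 of CDC42EP3-AS1, an antisense transcript, to a WT mean of 0.891 for intron 7 of HNRNPM. The HNRNPM intron had 0.857, 0.893 and 0.924 in WT and 0.919, 0.958 and 0.962 in CFAP20-KO, whereas AP1M1 intron 2, whose site is shown with it, had 0.159, 0.5 and 0.25 in WT and 0.0541, 0.536 and 0.2 in CFAP20-KO.

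GC content of the intron separated members in some libraries and not in others. The fifth of members with the lowest GC content had medians of 0.747 to 0.802 over the 6 libraries, a narrow range, and the fifth with the highest 0.464 to 0.742. The difference between them was -0.241 and -0.301 in WT 1 and CFAP20-KO 1 of run A. In run C it was -0.109, -0.0962 and -0.113 in WT 3, CFAP20-KO 2 and CFAP20-KO 3, and in run B -0.00472 and -0.0742 in WT 2 and the rescue. The 3 runs did not overlap, and within runs A and C the genotypes differed by -0.0594 and 0.0043. All 6 differences were below 0, with a mean of -0.144 (exact sign-flip p = 0.031, adjusted 0.0521), and the genotype difference of -0.0516 had p = 0.6 in the exact permutation test. The mean was -0.129 among introns numbered 3 or higher and -0.112 without introns at 0 or 1 in any library, with an exact sign-flip p of 0.0625 for each. Among second introns and introns 3 to 6 the highest GC group was lower in all 6 libraries. From intron 7 the lowest and highest groups had 0.769 and 0.624 in WT 1 and 0.8 and 0.612 in CFAP20-KO 1. There they had 0.765 and 0.826 in WT 2 and 0.796 and 0.775 in WT 3. In CFAP20-KO 2 they had 0.833 and 0.824, and in CFAP20-KO 3 0.817 and 0.790. Run A stood apart among GC-rich members. Among GC-poor members WT 1 and CFAP20-KO 1 had 0.758 and 0.765, within the range of the others, and among GC-rich members 0.517 and 0.464, against 0.685 or more in the other 4. This was not particular to members, since run A had the most negative GC differences in the other intron classes too. In WT 1 and CFAP20-KO 1 they were -0.223 and -0.202 for internal introns under 1 kb. For those of at least 5 kb they were -0.251 and -0.354, and for first introns -0.115 and -0.121.

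**Figure D4:**
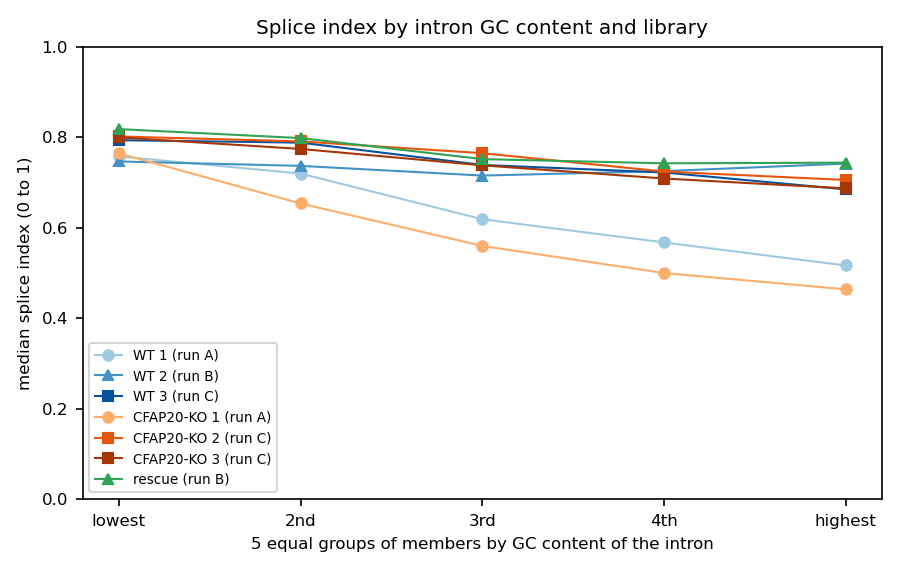
Median splice index (0 to 1) of members in 5 equal groups by GC content of the intron, with 1 line per library and the marker shape showing the run. The lines start together, at 0.747 to 0.802 for WT and CFAP20-KO in the lowest group, and the 2 of run A end at 0.464 and 0.517 in the highest.

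No single member passed the test between genotypes. With limma on the index of all 6537 introns, 0 of 1597 members had an adjusted p under 0.05 (0% over all introns), and the smallest adjusted p was 0.833. At an unadjusted p under 0.05 there were 117 members, 60 higher and 57 lower in CFAP20-KO, or 7.33% where all introns gave 5.71%. With every library centred on its median over all introns and the replicate number as a block, 9 members passed, 3 higher and 6 lower. This was 0.564% of members, where the share over all introns was 0.52%. With the same centring and the run as a covariate 14 passed, 3 higher and 11 lower. This was 0.877% of members, where the share over all introns was 0.918%. In both fits the share of members was thus near that over all introns. The introns of ABL2, DNMT1 and RACGAP1 passed only with the block, and those of CHAC1, CTPS1, HEG1, MED10, MPRIP, MRPS18A and NQO1 and 1 more of CPA4 only with the run. The 6 that passed in both were EIF4B intron 10, which was higher, and TOP3B intron 8, DSN1 intron 3, DRG2 intron 2, ASF1B intron 2 and CPA4 intron 8, which were lower. Both fits used the same 6 libraries, so passing both is not an independent second result. The values of all single introns are descriptions.

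Of members whose groups did not overlap, the 8 largest positive differences were in EIF4B, CTPS1, MORF4L2, RRP9, ENOPH1, RACGAP1, GSTO1 and DNMT1. This choice fixed the separation of the groups, and with it the same sign in runs A and C, for these and for the largest negative differences. Intron 10 of EIF4B, a translation initiation factor (chr12:53034725-53037408), had an index of 0.431, 0.585 and 0.560 in WT replicates 1 to 3 and 0.767, 0.901 and 0.843 in CFAP20-KO replicates 1 to 3. The CFAP20-KO mean was higher by 0.312 (SE 0.0721), and the rescue at 0.692 lay between the groups. The limma adjusted p was 0.833, and centred it was 0.0367 with the replicate block and 0.0379 with the run. Intron 3 of RACGAP1, a GTPase-activating protein of cytokinesis (chr12:50005393-50006433), had 0.739, 0.587 and 0.672 in WT and 0.966, 0.891 and 0.871 in CFAP20-KO. The rescue value of RACGAP1 intron 3 was 0.759. Intron 8 of DNMT1, the maintenance DNA methyltransferase (chr19:10168365-10173089), had 0.538, 0.798 and 0.841 in WT and 0.926, 0.981 and 0.980 in CFAP20-KO. Here WT 1 stood apart from the other WT libraries, and the rescue at 0.951 lay among the CFAP20-KO values. Intron 12 of CTPS1, a CTP synthase (chr1:41006095-41007448), had 0.286, 0.484 and 0.256 in WT and 0.545, 0.699 and 0.616 in CFAP20-KO, and its rescue value of 0.550 was at the lower end of CFAP20-KO. MORF4L2 intron 3, a 5′ UTR intron on chromosome X, had 0.584, 0.542 and 0.608 in WT and 0.820, 0.859 and 0.820 in CFAP20-KO. The other 3 of these introns differed by 0.255 in RRP9, a U3 snoRNP protein, 0.251 in ENOPH1, an enzyme of methionine salvage, and 0.240 in GSTO1, a glutathione transferase, and in each the rescue lay nearer to WT.

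The 8 largest negative differences were in TOP3B, DSN1, DRG2, ABL2, ARHGAP23, TNS3, CDCA8 and ASF1B, and they reached farther than the positive ones. Intron 8 of TOP3B, a topoisomerase that acts on DNA and RNA (chr22:21965376-21967602), had an index of 0.576, 0.737 and 0.566 in WT replicates 1 to 3 and 0, 0.378 and 0.205 in CFAP20-KO replicates 1 to 3, and 0.647 in the rescue. An annotated exon on the opposite strand covers all 2227 bp of this intron. The mean differed by -0.432 (SE 0.113, limma adjusted p = 0.833, and centred 0.00937 with the replicate block and 0.0271 with the run). Intron 3 of DSN1, a subunit of the kinetochore's MIS12 complex (chr20:36766842-36767968), had 0.774, 0.746 and 0.686 in WT and 0.143, 0.444 and 0.4 in CFAP20-KO, and the rescue at 0.764 lay within the WT range. The mean differed by -0.406 (SE 0.0985). The limma adjusted p was 0.833, and centred it was 0.0107 with the block and 0.0263 with the run. Intron 2 of DRG2, a GTP-binding protein (chr17:18092075-18093812), had 0.537, 0.75 and 0.814 in WT and 0.212, 0.385 and 0.476 in CFAP20-KO. It is annotated as a 3′ UTR intron of its transcript, and the rescue had 0.642. Intron 2 of ASF1B, a chaperone of histones H3 and H4, had 0.897, 0.842 and 0.840 in WT and 0.371, 0.741 and 0.653 in CFAP20-KO. CFAP20-KO 1 was far below the rest there, and the rescue at 0.697 lay among the CFAP20-KO values. Intron 5 of ABL2, a tyrosine kinase, had 0.785, 0.798 and 0.709 in WT and 0.429, 0.438 and 0.536 in CFAP20-KO, and the rescue at 0.699 was just under the WT range.

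**Figure D5:**
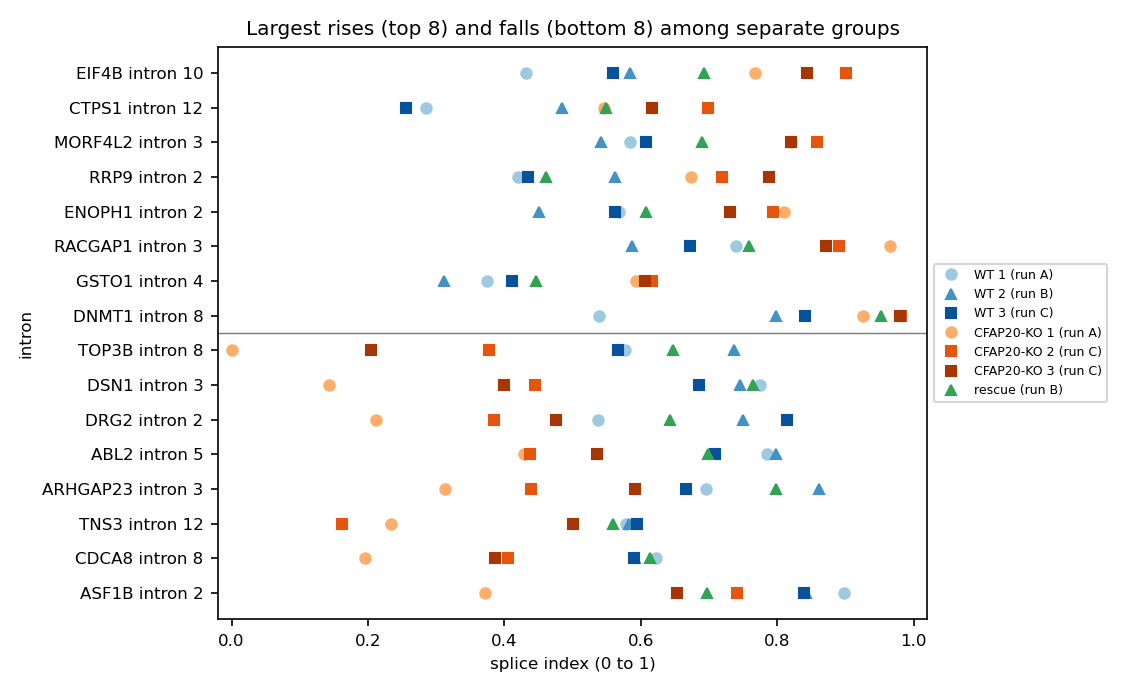
Splice index (0 to 1) of the 16 introns with the largest positive (upper 8) and negative (lower 8) differences among members whose groups did not overlap, with 1 point per library, colour for the library and shape for the run. Blue WT and orange CFAP20-KO points do not overlap in any row, which the choice of rows fixed, and green rescue points lie within or near the WT values for DSN1 (0.764) and among the CFAP20-KO values for DNMT1 (0.951).

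Tensin 3 (TNS3), which links the actin cytoskeleton to adhesions, had a member at the upper length limit as well. Its intron 23, the longest member at 4972 bp, had 0.564, 0.595 and 0.609 in WT and 0.345, 0.324 and 0.377 in CFAP20-KO, and 0.553 in the rescue, while the CLTA intron 3 next to it in length, at 4971 bp, had 0.690, 0.762 and 0.911 in WT and 0.592, 0.952 and 0.934 in CFAP20-KO. Just beyond the limit, EZR intron 7 (5000 bp) had WT values of 0.854, 0.794 and 0.946 and PPP4R3A intron 2 (5016 bp) 0.710, 0.462 and 0.409. At the lower limit, KLF6 intron 2 (1001 bp) had 0.366, 0.35 and 0.328 and PHYKPL intron 11 (1002 bp) at most 0.0103 in WT, and just below it SF3A2 intron 2 (999 bp) had 0.841, 0.957 and 0.940 and ETS1 intron 4 (997 bp) 0.76, 0.616 and 0.661.

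CPA4, a metallocarboxypeptidase, has 3 members, of which the intron 4 given first and intron 8 were among the 14 that passed with the run as a covariate. Intron 4 of 1 transcript (chr7:130300915-130304477) had 0.698, 0.721 and 0.792 in WT and 0.4, 0.478 and 0.541 in CFAP20-KO, and intron 8 (chr7:130308398-130310786) had 0.846, 0.943 and 0.957 in WT and 0.629, 0.712 and 0.796 in CFAP20-KO. Intron 4 of another CPA4 transcript had 0.157, 0.391 and 0.305 in WT and 0.0667, 0.106 and 0.202 in CFAP20-KO. All 3 were lower in the CFAP20-KO mean, the last with overlapping groups, and the rescue values of 0.656, 0.927 and 0.246 were above every CFAP20-KO value.

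Introns of the same gene resembled each other. Over the 326 genes with at least 2 members (945 introns), the intraclass correlation within genes was 0.556 for the mean WT index and 0.450 for the difference between genotypes, a description of introns that share transcripts and reads and not a test. Of the 40 genes with at least 5 members, 5 had every member higher and 9 every member lower in the CFAP20-KO mean. The 5 with every member higher were EIF4B, DHX9, MSN, VCL and HNRNPM. In EIF4B, intron 6 of one transcript had 0.312, 0.156 and 0.4 in WT and 0.375, 0.817 and 0.659 in CFAP20-KO, and intron 7 had 0.357, 0.317 and 0.459 in WT and 0.343, 0.907 and 0.802 in CFAP20-KO. There CFAP20-KO 1 stayed among the WT values while CFAP20-KO 2 and 3 were above them, unlike at intron 10, where all 3 were higher. Moesin (MSN), which ties actin to the membrane, has 6 members with median index 0.869, 0.849 and 0.889 in WT and 0.934, 0.968 and 0.959 in CFAP20-KO. The groups did not overlap in 5 of the 6, where the share over all introns was 11.1%.

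The 9 genes with every member lower included TXNRD1, CDCA8, JADE1, MMP2, TGM2, ATP8B1, SF3B3 and TAF15. JADE1, a subunit of a histone acetyltransferase complex, had the largest median difference of the 9 at -0.122, with medians over its 6 members of 0.743, 0.697 and 0.678 in WT and 0.665, 0.574 and 0.535 in CFAP20-KO, and 0.709 in the rescue. ATP8B1, a phospholipid flippase, had 0.882, 0.912 and 0.849 in WT and 0.808, 0.762 and 0.759 in CFAP20-KO over 5 members, with 0.927 in the rescue. In both genes every CFAP20-KO median was below every WT median. CDCA8 encodes borealin of the chromosomal passenger complex. Its 6 members differed by -0.0759 to -0.272, and intron 8, with 0.623, 0.591 and 0.590 in WT and 0.195, 0.405 and 0.386 in CFAP20-KO, was the one whose groups did not overlap. In EIF4B, HNRNPM and MMP2, among others of these 14 genes, the sign of the median was not the same in runs A and C.

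MYH9, the heavy chain of nonmuscle myosin IIA, had the most members. All but 1 of its 12 introns were higher in the CFAP20-KO mean. Intron 5 of a short transcript had 0.170, 0.263 and 0.168 in WT and 0.273, 0.493 and 0.488 in CFAP20-KO, and 0.418 in the rescue. Intron 40 of the long transcript had 0.815, 0.917 and 0.896 in WT and 0.972, 0.966 and 0.941 in CFAP20-KO, and 0.969 in the rescue. Of the 12, introns 5, 15, 19 and 40 had groups that did not overlap, where the share over all introns was 11.1%. Intron 11 was the exception to the direction, at 0.623, 0.788 and 0.814 in WT and 0.519, 0.796 and 0.677 in CFAP20-KO. In the long transcript the WT mean was 0.857, 0.742, 0.951, 0.914 and 0.876 at introns 10, 11, 23, 31 and 40, without a steady order.

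At the extremes of the WT index lay introns with nearly no spread. The 4 highest were all in TERT, the catalytic subunit of telomerase, at introns 3, 9, 10 and 13 (the first and last at chr5:1280339-1282428 and chr5:1255412-1258597). Introns 9, 10 and 13 had an index of 1 in all 7 libraries, and intron 3 had 1 in WT and 0.986, 1 and 0.977 in CFAP20-KO. RPE1 was immortalised with a human TERT transgene, and such transgenes are built from cDNA without introns. Its part in these values was not tested. At the other end, 21 members had 0 in all 6 WT and CFAP20-KO libraries, and 10 of the 21 lay in transcripts without a coding sequence. Among them were intron 4 of CDC42EP3-AS1, intron 2 of a CTSB transcript and intron 32 of DUOX1, an NADPH oxidase. Of the 76 genes with at least 4 members, AXL, a receptor tyrosine kinase, had the narrowest range of WT means after TERT, with WT means of 0.903 to 0.942 over 4 members.

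The widest ranges within a gene, among the 76 genes with at least 4 members, were in TXNRD1, a thioredoxin reductase, and TNIP1, an inhibitor of NF-kappa B signalling. TXNRD1 intron 9 had 0.962, 0.960 and 0.975 in WT, and a 5′ UTR intron numbered 3 in another transcript (chr12:104289543-104290992) had 0.0497, 0.104 and 0.0899. TNIP1 intron 11 had 0.792, 0.737 and 0.944, whereas intron 2 of a transcript without a coding sequence had at most 0.00606 in WT. In both genes the lowest value was that of a 5′ UTR or noncoding intron and the highest that of an intron farther along the gene.

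By function, genes of translation had the largest median difference among 8 lists with 3 or more members. No member of any list passed limma's adjusted threshold. The 43 members in ribosomal proteins and translation factors had a median difference of 0.0624, with 31 higher and 12 lower, where all members had -0.00926 (700 higher, 873 lower) and all introns 0. These members lay in only 25 genes, EIF4B alone held 5 of the 31, and introns of the same gene are not independent. The groups did not overlap in 6 of the 43, 4 of them higher and 2 lower. This share was near the 11.1% over all introns (5.92% higher and 5.14% lower). The list's median index was 0.637, 0.788 and 0.795 in WT and 0.656, 0.90 and 0.861 in CFAP20-KO, so it was above WT in CFAP20-KO 2 and 3 and among the WT values in CFAP20-KO 1. EIF2S2 intron 2, of a translation initiation factor and nearest the list's WT median, had 0.667, 0.678 and 0.794 in WT and 0.426, 0.939 and 0.919 in CFAP20-KO. Its lowest member was intron 5 of RPS19, a small-subunit ribosomal protein, with 0.0135, 0.147 and 0.140 in WT and 0.0920, 0.252 and 0.168 in CFAP20-KO, and its highest intron 5 of EEF1G, an elongation factor, with 0.934, 0.975 and 0.980 in WT and 0.905, 0.971 and 0.969 in CFAP20-KO. Within this list, then, the WT index ran over nearly the whole scale.

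The 84 members in spliceosome and RNA-processing genes had a median difference of 0.0183, with 8 entirely higher and 7 entirely lower, where the shares over all introns were 5.92% and 5.14%. PRPF19, a scaffold of the spliceosome-associated complex named after it, held the lowest of them at intron 2, a 5′ UTR intron, with 0.0444, 0.148 and 0.0752 in WT and 0.031, 0.115 and 0.178 in CFAP20-KO. HNRNPM intron 10 was nearest the list's WT median and had 0.767, 0.778 and 0.727 in WT and 0.8, 0.955 and 0.904 in CFAP20-KO, with every CFAP20-KO value above every WT value. TAF15 intron 2 was the highest in WT, at 0.975, 0.989 and 0.984, and had 0.917, 0.979 and 0.913 in CFAP20-KO. The 75 members in matrix, integrin and adhesion genes had the highest WT median of the 8 lists at 0.814, a median difference of 0.00256, and 6 entirely higher and 1 entirely lower, which together is below the share of 11.1% over all introns. Among them TIMP2 intron 2, of a metalloproteinase inhibitor, had 0.929, 0.976 and 0.969 in WT and 0.844, 0.926 and 0.943 in CFAP20-KO, and ITGA3 intron 4, of an integrin, 0.222, 0.559 and 0.489 in WT and 0.154, 0.417 and 0.310 in CFAP20-KO. In both the groups overlapped.

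Of the 43 members in DNA replication, repair and cell cycle genes, 4 were entirely higher and 0 entirely lower, which together is below the share of 11.1% over all introns, with a median difference of 0.0155. Intron 3 of a transcript of MCM5, a subunit of the replicative helicase, was the lowest in WT and 1 of the 4, with 0.0457, 0.0479 and 0.0570 in WT and 0.127, 0.0945 and 0.11 in CFAP20-KO. CDC6 intron 4, of a helicase loader, was the highest, with 0.951, 0.961 and 0.972 in WT and 0.917, 0.966 and 0.913 in CFAP20-KO. The 11 members in RNA polymerase II, Mediator and elongation genes had 0.0277 and none without overlap. SUPT5H intron 2, of the DSIF subunit SPT5, had 0.959, 0.948 and 1 in WT and 0.947, 0.993 and 0.982 in CFAP20-KO, and ERCC3 intron 7, of a TFIIH helicase, 0.278, 0.373 and 0.409 in WT and 0.293, 0.486 and 0.407 in CFAP20-KO. The 18 members in microtubule and cilium genes, the structures CFAP20 is known from, had a median difference of -0.00261, with 9 higher and 9 lower and 1 entirely lower, near the share of 5.14% over all introns. KIF11 intron 21, of a mitotic kinesin, was this 1, with 0.968, 0.957 and 0.909 in WT and 0.88, 0.873 and 0.902 in CFAP20-KO. TUBB6 intron 2, of a beta-tubulin, had 0.214, 0.515 and 0.297 in WT and 0.183, 0.269 and 0.328 in CFAP20-KO, with run A lowest in both genotypes.

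Members in a list of glycolysis and respiration genes, which also takes in transketolase, numbered 28, and those in proteasome and chaperone genes 43. Their median differences were 0.00841 and 0.0217, with 0 and 3 whose groups did not overlap, below the share of 11.1% over all introns. LDHA intron 3, of a lactate dehydrogenase, had 0.908, 0.949 and 0.951 in WT and 0.934, 0.970 and 0.973 in CFAP20-KO, and TKT intron 5, of transketolase, 0.190, 0.422 and 0.206 in WT and 0.0465, 0.296 and 0.316 in CFAP20-KO. CCT6A intron 2, of a cytosolic chaperonin, had 0.291, 0.30 and 0.224 in WT and 0.256, 0.397 and 0.478 in CFAP20-KO, and CANX intron 13, of the ER chaperone calnexin, 0.974, 0.978 and 0.987 in WT and 0.978, 0.993 and 0.985 in CFAP20-KO. Of 13 marker genes of retinal pigment epithelium, 1 held members (2 introns), and none of the epithelial, neuronal or haematopoietic marker genes did. The cell type could therefore not be checked within this class of introns.

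Coverage inside the introns was set beside the index where it could be read. For 268 members that lay in deposited windows around replication origins, the median coverage per 200-bp bin was 31.9, 14.3 and 26.7 in WT and 30.1, 23.3 and 22.5 in CFAP20-KO. The groups overlapped, WT 2 being lowest. As log2(signal + pseudocount), a scale that compresses differences at weakly covered introns, the difference was 0.08 (exact permutation p = 0.9), and within runs A and C -0.07 and -0.17. Across these introns the difference in index and the difference in log2 coverage had a Spearman correlation of -0.149, given as a description since both come from the same libraries. The reads behind each index are unknown, so no interval could be given for a single value. The spread between replicates of an intron had a median SD of 0.0724 in WT and 0.0805 in CFAP20-KO.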

How the data were processed

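The deposited splice table holds a fraction from 0 to 1 per intron and library, whose formula the authors' labels and headers do not state. Deposited coverage files hold signal per 200-bp bin on the transcribed strand around replication origins, scaled per library by the authors to an unstated reference. Genome hg38 is named in the submitters' processing notes, along with the aligner STAR (2.7.7a), SAMtools (1.11), HOMER (4.8.2), R (4.0.5), and, for read quality and trimming, FastQC (0.11.9) and Trim Galore (0.6.5). Reads were paired and 151 bp long per the labels' protocols. Depth per intron is unknown, so no count model or counting interval was used.

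Introns were matched by coordinates to GENCODE 44 on hg38 (1544 of 1597), which gave the annotation, and sequence was read from hg38 at the deposited coordinates. Medians per library were compared between genotypes by exact permutation over 3 against 3 libraries, and differences within libraries by exact sign flips over 6, two-sided. Single introns were tested with limma (3.58.1, with robust fitting and a mean trend, statmod 1.5.0, under R 4.3.3) and adjusted by Benjamini-Hochberg over 6537 introns, a script tested on simulated data. The rule for named introns took those past the test or, with none, the 8 largest differences each way among groups without overlap and with the same sign in runs A and C. The condition on sign follows from the lack of overlap and removed no member. The rule added the 4 highest and 4 lowest in WT, and the median and extreme members of each list. It also added the genes with the widest and narrowest range among those with at least 4 members, and introns at the length limits. Introns that passed a centred fit, U12-like introns, MYH9 and genes whose members all differed one way were chosen after their values were seen. Members and lists were chosen with earlier results of these data known. Some introns that the rules name are not reported here.

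Signal used bins at least 200 bp inside the intron, with a pseudocount of 7.07, the 10th percentile of values above 0. Same-numbered WT and CFAP20-KO libraries deviated together from their group means (correlation 0.501, 0.170 and 0.267, all above the limit of 0.1), so the numbers were taken as pairs, from the data and not from the labels. WT 2 and WT 3 correlated more with another number (0.212 with CFAP20-KO 3 and 0.304 with CFAP20-KO 2). The authors' deposited differences set CFAP20-KO 2 and 3 against WT 3, and the rescue against WT 2. The replicate block departs from this, since it sets WT 2 beside CFAP20-KO 2, which belong to different runs. Alternatives were the replicate block, the run, CFAP20-KO 2 and 3 averaged, each replicate left out, other limits of length and position, 1 value per gene, introns at 0 or 1 left out, means, log odds, centring and ordinary empirical Bayes.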

Additional observations from a re-analysis of the deposited data

How the results depend on the processing

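The genotype difference in length dependence stayed below 0 under every alternative run, at -0.0536 to -0.0304 without each replicate in turn and -0.0445 with the replicate block or pairing, but was -0.0102 among introns numbered 3 or higher. The difference of members of 4 to 5 kb from those of 1 to 2 kb was 0.0200 for introns numbered 3 or higher. It was 0.0430 with 1 value per gene and 0.0366 as a mean. Each of these had an exact sign-flip p of 0.031, the smallest possible. Second introns lay below later ones throughout, at -0.155 with the replicate block, -0.150 within runs, -0.159 with CFAP20-KO 2 and 3 averaged and -0.164 to -0.146 without each replicate, designs in which the sign-flip test cannot reach 0.05. The same designs kept the exact sign-flip permutation test from reaching 0.05 for last introns, UTRs, noncoding transcripts, GC content and opposite exons. This held for the within-transcript differences as well. Apart from this limit, the block changed no call except the centred counts of single introns. Differences near 0 turned. Without each replicate, the class median, CFAP20-KO minus WT, ran from -0.0348 to 0.0454, above 0 without WT 2, WT 3 or CFAP20-KO 1, and members minus short internal introns from -0.00972 to 0.00375. The latter was 0.00237 for introns numbered 3 or higher, 0.0176 with 1 value per gene and 0.00948 as a mean. The genotype difference of the position gap was 0.00984 within runs, 0.000111 with 1 value per gene, 0.00273 without introns at 0 or 1, and -0.0257 to 0.0190 without each replicate. Strong minus weak 5′ splice sites turned to -0.0125 at 1.5 to 4 kb, -0.00776 for introns numbered 3 or higher and -0.00484 as a mean. The genotype difference of that gap was -0.00385 within runs, -0.00673 at 1.5 to 4 kb, -0.00263 with 1 value per gene, -0.00388 as a mean and -0.00639 to 0.00994 without each replicate. Among comparisons added after seeing the data, the genotype difference of the GC gap ran from -0.113 to 0.0138 without each replicate. That of the gap to members with an opposite exon was -0.0019 within runs, -0.00418 with CFAP20-KO 2 and 3 averaged, -0.0123 for introns numbered 3 or higher, -0.0270 without introns at 0 or 1, -0.00412 as a mean and -0.00971 to 0.0225 without each replicate. The log2 coverage difference was -0.12 within runs and -0.17 to 0.26 without each replicate. No other result changed direction. Members passing limma numbered 9 when centred with the replicate block and 14 when centred with the run, against 0 in the other fits run. These were 0.564% and 0.877% of members, where the shares over all introns were 0.52% and 0.918%. The cause was not tested for any of these. The length comparison could not be made at 1.5 to 4 kb, nor the position comparison among introns numbered 3 or higher, since these limits remove a group. Depth per intron is unknown, so its limit on single values could not be given.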
